A study of Mus musculus with 4 samples.

Results

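The genes described here are 33 integrin subunits, selectins, their ligands, other leukocyte adhesion molecules and the cytoplasmic proteins that act on integrin tails. They were taken from a fixed list of gene symbols, and the probe with the highest mean signal stood for each gene. All 33 genes had a probe, out of 20802 named genes measured, and 30 of them passed the filter on low signal and were tested. The cells came from bronchoalveolar lavage fluid (BALF), the wash of the airways and alveoli, from mice of 8 to 10 weeks that received bleomycin, a drug that causes lung fibrosis, by intraperitoneal injection at 0.035 U/g, repeated within each week. They were collected on day 22. The groups were wild-type littermates and S1pr2-/- mice, which carry a targeted disruption of the gene for a sphingosine-1-phosphate receptor in every cell, on a mixed background crossed once to C57BL/6J. Both groups received bleomycin, so that no group without the drug was compared here. RNA was measured on 4 one-color arrays, 2 per genotype. The design text gives the arrays as independent experiments and the methods as independent RNA samples, and the sources used here do not say how many mice entered each array, so p-values measure the spread between these arrays.

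Integrins are receptors made of an alpha and a beta subunit that bind extracellular matrix or counter-receptors on other cells. Talin and kindlin bind the tail of the beta subunit and switch the receptor to its binding form. Selectins catch leukocytes by sugars carried on mucin-like ligands, and the integrins then hold the cell to members of the immunoglobulin family such as ICAM-1 and VCAM-1. In the lung these molecules take leukocytes from blood to airspace, and the alphav integrins are also known for activating latent transforming growth factor beta.

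Signals are given as log2 of the processed intensity over the array's 75th percentile, so that 0 is that percentile and the floor lies at a ratio of 0.01. These values compare arrays for 1 probe and not one gene with another. The S1pr2 probe read -0.13 and -0.16 on wild-type arrays and 2.67 and 2.54 on those labelled S1pr2-/-, so that it was higher on the latter, against the label. Whether this probe lies in the disrupted part of the gene is not given in the sources used here, and an exchange of labels was not tested. Every direction below therefore refers to arrays by their label. The 75th percentiles of the 4 arrays lay between 2489 and 2817 intensity units, and no spot was saturated (0 on each array). Replicate arrays differed by a mean of 0.209 (wild-type) and 0.199 (labelled S1pr2-/-) on the log2 scale, taken as absolute values over tested probes. With 2 arrays against 2, an exact two-sided permutation test cannot give a p under 0.333. The labels call the cells alveolar macrophages, while RNA came from BALF cells with no sort described. All 9 alveolar macrophage markers with a probe were tested, with a median log2 fold change of -0.04, and markers of T cells, neutrophils and epithelium were also measured above background. In such bulk RNA, fewer cells of a type and less RNA per cell cannot be told apart.

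Cd34, which encodes a sialomucin of blood progenitors and vessel lining cells that is also known on mouse eosinophils and mast cells, had the widest difference of the 30 tested genes. Its log2 signal was 0.09 and 1.66 on wild-type arrays and -2.36 and -2.23 on those labelled S1pr2-/-. Both of the latter lay below both wild-type arrays. The difference was 9.005-fold (log2 fold change -3.17, standard error 0.62, 95% interval -5.04 to -1.30), with an unadjusted p of 0.011 and an adjusted p of 0.509 from limma with Benjamini-Hochberg adjustment. Cd34 was the 1 gene of 30 that met the threshold of 1.5-fold lower with an unadjusted p under 0.05, which 1.62% of all tested probes met, and 0 of 30 met it in the higher direction, against 0.486% of probes. Leaving out 1 wild-type array moved the log2 fold change to -3.95 (without the first) or -2.39 (without the second). The unadjusted p was 0.079 without the first array labelled S1pr2-/-, 0.073 without the second and 0.056 by the methods' t-test. A dimmer Cd34 probe read -6.49 and -4.86 on the wild-type arrays and lay at the floor on both others, and it was not tested because it was well above background on 1 array.

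Eosinophil markers moved with Cd34. Of 7 listed genes 6 were tested, and 5 were lower by 1.5-fold with an unadjusted p under 0.05 in limma. Ear6 was also lower without overlap, by a log2 fold change of -0.79 with an unadjusted p of 0.163 in limma. The median log2 fold change of the 6 genes was -4.50. The summed signal of this list, in units of the 75th percentile, was 5.88 and 14.4 on wild-type arrays and 2.36 and 3.70 on those labelled S1pr2-/-. As with Cd34, the second wild-type array was the highest. Ear6, the least changed of the 6 tested genes, read 1.81 and 2.73 on wild-type arrays and 1.16 and 1.80 on those labelled S1pr2-/-. It made up most of the sum on the latter arrays. Prg2, the eosinophil major basic protein, read -0.07 and 1.69 on wild-type arrays and -5.04 and -3.99 on those labelled S1pr2-/-. Ccr3, the eotaxin receptor, read -0.41 and 1.17 against -4.48 and -3.69. The mast cell and basophil markers Cma1, Fcer1a, Mcpt8 and Ms4a2 were not well above background on any array, and the summed signal of that list was 0.659 and 0.739 on wild-type arrays and 0.513 and 0.559 on those labelled S1pr2-/-. The 2 tested genes of that list were both lower without overlap, against 21.8% of all probes. Tpsb2, a mast cell tryptase, had a log2 fold change of -0.19. Hdc, which makes histamine, had -0.60, past the 1.5-fold threshold, with an unadjusted p of 0.046 and an adjusted p of 0.519 in limma. Of 7 endothelial markers, Cldn5, Emcn, Tek and Tie1 were not well above background on any array. Cdh5 was near or at the floor, so that the summed signal was almost all from Vwf and Kdr. This sum was 14.2 and 15.8 on wild-type arrays and 15.1 and 19.4 on those labelled S1pr2-/-. The part of eosinophils, or of mast cells and basophils, in the Cd34 difference was not tested.

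No member passed an adjusted p of 0.05 (0 of 30, lowest 0.509), and among all 27161 tested probes the share was 0% (lowest adjusted p 0.333). At an unadjusted p under 0.05, 4 members were lower (Cd34, Itgb6, Pecam1 and Itga3), or 13.3%, and 5.59% of all probes were. In the other direction it was Vcam1, or 3.33%, against 3.99%. The gene or genes past this threshold differed between alternatives, and Vcam1 missed it without the second wild-type array (unadjusted p of 0.087) or the second labelled S1pr2-/- (0.081). The arrays labelled S1pr2-/- both lay below both wild-type arrays for 12 of 30 members (40%) and for 21.8% of all probes, and both lay above for 7 (23.3%) and 20.0%. With the added demand of 1.5-fold, 4 members were lower (Cd34, Itgb3, Icam2 and Itgb7; 13.3% against 2.87%) and 0 were higher (against 0.906%). The median log2 fold change was -0.03 over members and -0.00298 over all probes, with 15 members below 0 and 15 above. The median absolute log2 fold change was 0.22 over members and 0.12 over all probes.

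**Figure D1:**
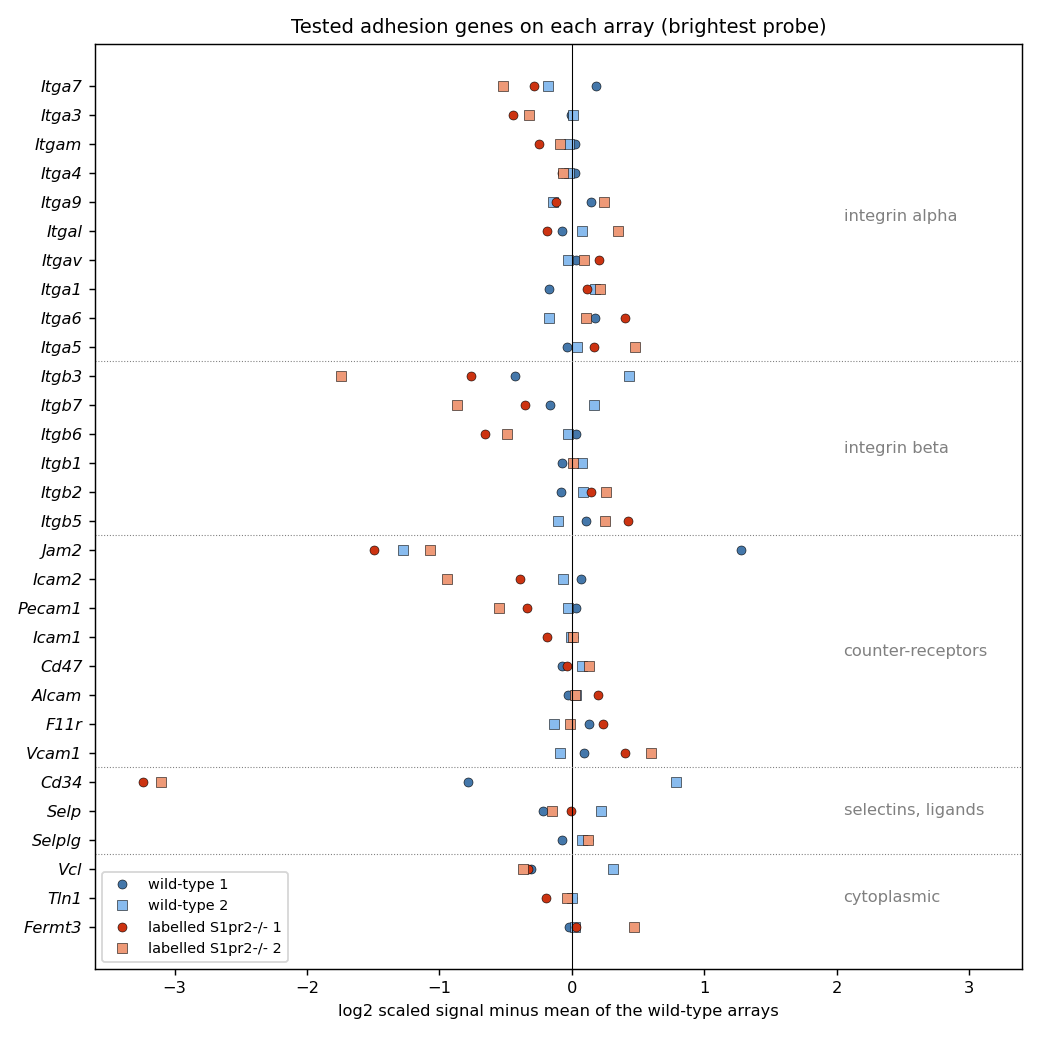
Log2 scaled signal of each of the 30 tested adhesion genes minus the mean of the wild-type arrays (horizontal axis), with 1 point per array and genes grouped by role. Cd34 stands apart at a log2 fold change of -3.17, and 23 of 30 genes differed by under 0.5 on the log2 scale.

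**Figure D2:**
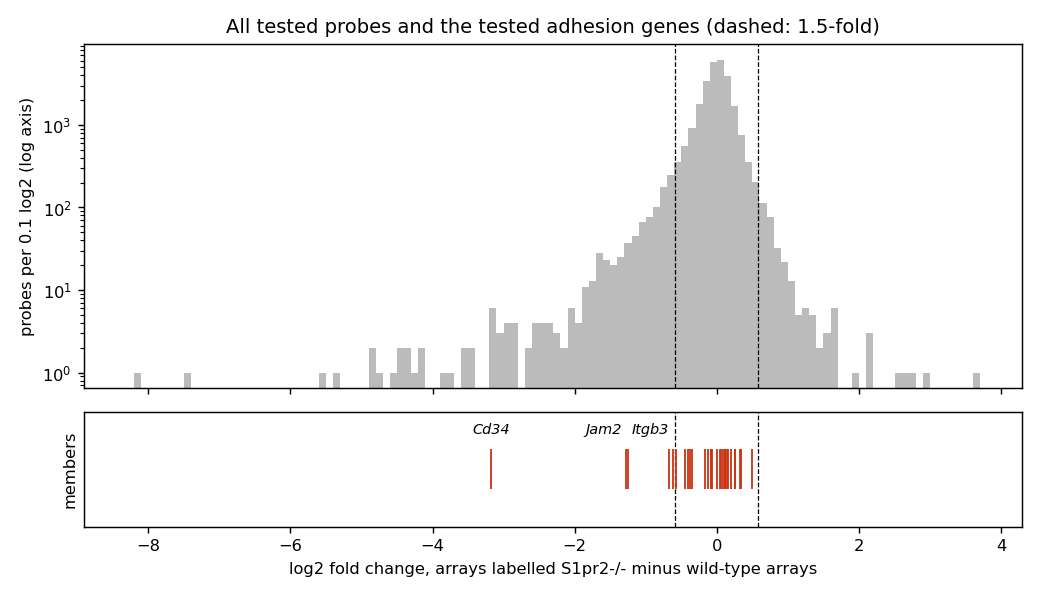
Number of the 27161 tested probes in each bin of log2 fold change (upper panel, log axis) and the log2 fold change of each tested adhesion gene (lower panel, 1 stroke per gene), as arrays labelled S1pr2-/- minus wild-type arrays. Dashed lines mark 1.5-fold, and the members run from -3.17 to 0.50.

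The alpha subunits were 12 genes, of which 10 were tested and 2, Itga2 and Itga2b, were not. Itga2, a collagen receptor subunit, was at the floor on all 4 arrays. Itga2b, the platelet fibrinogen receptor subunit, was at the floor on 3 arrays and read -6.36 on the second wild-type array. The log2 fold changes of the 10 tested subunits lay between -0.40 (Itga7, a laminin receptor subunit) and 0.32 (Itga5, the fibronectin receptor subunit), and the lowest adjusted p was 0.509. With 1 array left out, Itga7 ran from -0.58 to -0.22, Itga5 from 0.17 to 0.48 and Itga6 from 0.08 to 0.42. For 4 of them the arrays labelled S1pr2-/- lay below both wild-type arrays (Itga3, Itga4, Itga7 and Itgam). For 2 they lay above (Itga5 and Itgav), and for 4 the groups overlapped. Over all probes, 21.8% lay below and 20.0% above in this way.

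Itgam, the alpha chain of Mac-1 that binds complement fragments, had a log2 fold change of -0.17 (95% interval -0.43 to 0.09), and its further probes gave -0.28 and -0.29. Itgal, the alpha chain of LFA-1 that binds ICAM-1, had 0.08 (-0.60 to 0.76) and 0.45 by its second probe, with overlapping groups in both. Their shared beta chain, Itgb2, read 5.33 and 5.49 on wild-type arrays and 5.55 and 5.66 on those labelled S1pr2-/-, giving a log2 fold change of 0.20 (-0.09 to 0.49). The groups did not overlap for Itgb2, and the difference was close to the spread within the wild-type pair. Itga6, a laminin receptor subunit, had 0.25 (-0.30 to 0.81), and Itga9, Itga1 and Itgal all overlapped. Itga3, another laminin receptor subunit, was dim at -5.30 and -5.29 on wild-type arrays and -5.74 and -5.62 on those labelled S1pr2-/-, giving a log2 fold change of -0.38 with an unadjusted p of 0.01 and an adjusted p of 0.509 in limma. It became 0 when arrays were scaled on detected probes, since all of its values then fell to the floor, and 0.78 with normexp background correction fitted on all spots.

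The beta subunits were 7 genes with 6 tested, and Itgb8, which pairs with alphav to activate latent transforming growth factor beta, was at the floor on all 4 arrays. Itgb3, which pairs with alphaIIb on platelets and with alphav on macrophages and other cells, read -0.64 and 0.23 on wild-type arrays and -0.97 and -1.94 on those labelled S1pr2-/-. The groups did not overlap, but the spread within each pair was wide. The log2 fold change was -1.25 (standard error 0.51, 95% interval -2.81 to 0.30), with an unadjusted p of 0.085 and an adjusted p of 0.548 in limma. It lay at -0.76 without the second array labelled S1pr2-/- and at -1.74 without the first. A second Itgb3 probe, well above background on 1 wild-type array, was not tested.

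Of the partners of Itgb3 1 could be tested. Itgav read -1.53 and -1.59 on wild-type arrays and -1.36 and -1.47 on those labelled S1pr2-/-, giving a log2 fold change of 0.15 (95% interval -0.07 to 0.37). A dimmer Itgav probe had a log2 fold change of 0.17. Itga2b, near or at the floor on all 4 arrays, was not tested, and values at the floor could not show a decrease. Of 8 platelet and megakaryocyte markers, Gp1ba, Gp5, Gp6 and Gp9 were not well above background on any array, and the summed signal of the list was 2.35 and 2.42 on wild-type arrays and 3.71 and 2.06 on those labelled S1pr2-/-.

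Itgb7, which forms a gut-homing receptor with alpha4 and the E-cadherin receptor of mucosal T cells with alphaE, read 1.98 and 2.31 on wild-type arrays and 1.78 and 1.27 on those labelled S1pr2-/-. The log2 fold change was -0.61 (standard error 0.24, 95% interval -1.35 to 0.13), a 1.53-fold difference with an unadjusted p of 0.080 and an adjusted p of 0.544 in limma. It was -0.36 without the second array labelled S1pr2-/-, which was the lowest of all. Itga4 read 2.78 and 2.73 against 2.68 and 2.69, a log2 fold change of -0.07 (95% interval -0.24 to 0.10). No probe was named Itgae, so that this partner has no value here. T cell markers moved in the same direction, with 3 of 8 past the 1.5-fold threshold (Cd5, Lck and Cd28) and a summed signal of 19.0 and 20.6 on wild-type arrays and 16.6 and 12.2 on those labelled S1pr2-/-, and their part in the Itgb7 difference was not tested.

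Itgb6, an epithelial subunit that pairs with alphav, was dim on every array. It read -5.03 and -5.09 on wild-type arrays and -5.72 and -5.55 on those labelled S1pr2-/-, giving a log2 fold change of -0.57 (95% interval -0.83 to -0.31) with an unadjusted p of 0.0052 and an adjusted p of 0.509 in limma. The value fell short of 1.5-fold, was -0.18 when arrays were scaled on detected probes, and was 0.74 with normexp fitted on all spots. A second Itgb6 probe was at the floor on all 4 arrays. Of 7 epithelial markers, 4 were lower without overlap and 0 higher, against 21.8% and 20.0% of all probes, with a median log2 fold change of -0.33. Their summed signal was 44.8 and 53.3 on wild-type arrays and 39.6 and 64.3 on those labelled S1pr2-/-. The part of epithelial cells in the Itgb6 difference was not tested. Itgb5, another partner of alphav, read 4.65 and 4.45 against 4.97 and 4.80, a log2 fold change of 0.33 (-0.02 to 0.69) with an unadjusted p of 0.059. Itgb1, the shared partner of alphav and of many alpha subunits that bind matrix, had a log2 fold change of 0.01 (-0.24 to 0.25). Of the alphav partners, Itgb3 and Itgb6 thus lay lower, Itgb5 higher and Itgb1 level with overlapping groups on the arrays labelled S1pr2-/-, none past an adjusted p of 0.05.

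**Figure D3:**
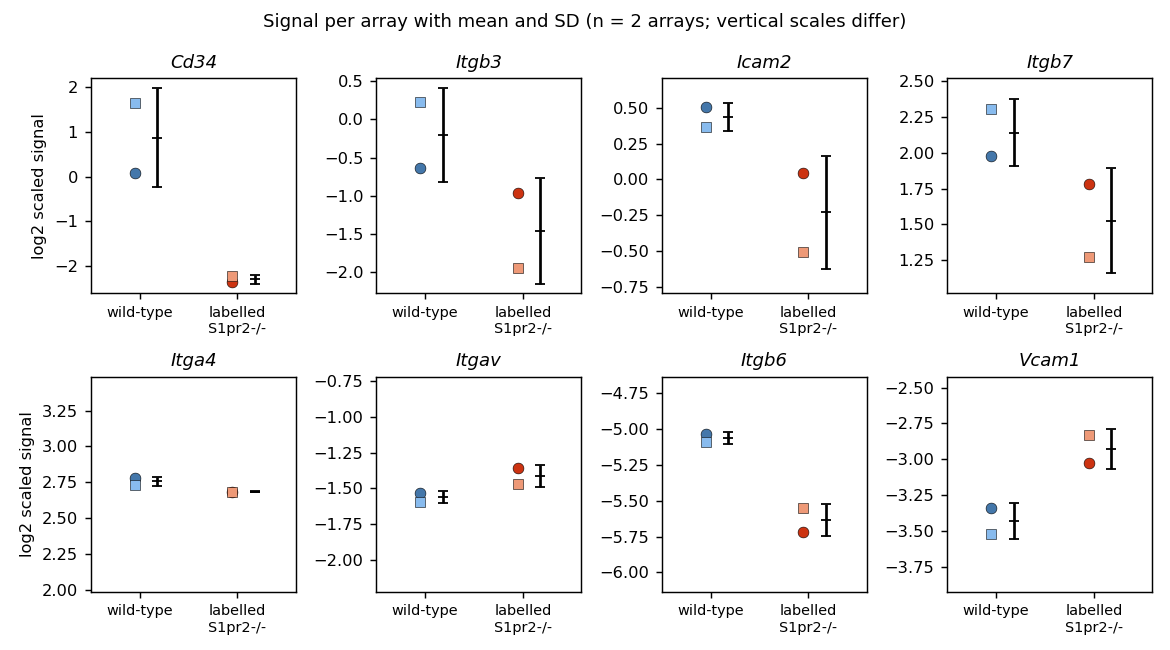
Log2 scaled signal on each array (points) with the mean and SD of each group (bars, n = 2 arrays) for Cd34, Itgb3, Icam2, Itgb7, Itga4, Itgav, Itgb6 and Vcam1. The groups do not overlap in any panel, which the choice of Cd34, Itgb3, Icam2 and Itgb7 required. Of the 30 tested genes, 11 overlapped and are not shown. Over all probes, 21.8% lay lower and 20.0% higher without overlap. The difference spans from -3.17 for Cd34 to 0.50 for Vcam1.

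Of the 8 counter-receptors and junctional molecules, all tested, Icam2 met the 1.5-fold size without overlap. Icam2 is an LFA-1 ligand of vessel lining cells, platelets and leukocytes. It read 0.50 and 0.37 on wild-type arrays and 0.05 and -0.51 on those labelled S1pr2-/-, giving a log2 fold change of -0.67 (standard error 0.23, 95% interval -1.36 to 0.03), with an unadjusted p of 0.056 and an adjusted p of 0.526 in limma. It was -0.39 without the second array labelled S1pr2-/- and -0.94 without the first. The unadjusted p was under 0.05 in 7 of 16 alternatives, between 0.011 and 0.046 in these. Icam1, the inducible ligand of LFA-1 and Mac-1, had a log2 fold change of -0.09 (-0.37 to 0.19), and its groups overlapped.

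Vcam1, the ligand of alpha4 beta1, differed in the other direction. It read -3.34 and -3.52 on wild-type arrays and -3.03 and -2.83 on those labelled S1pr2-/-, giving a log2 fold change of 0.50 (95% interval 0.15 to 0.85) with an unadjusted p of 0.02 and an adjusted p of 0.509 in limma. A second Vcam1 probe was at the floor on all 4 arrays. Of 5 fibroblast markers, 4 were higher without overlap, against 20.0% of all probes, with a median log2 fold change of 0.76. Their summed signal was 0.26 and 0.255 on wild-type arrays and 0.659 and 0.353 on those labelled S1pr2-/-. Of 7 tested markers of monocyte-derived macrophages, 4 were higher without overlap (Cx3cr1, C1qa, C1qb and C1qc), with a median of 0.58 over the 7. Their summed signal was 114.0 and 44.7 against 130.2 and 79.0. Apoe, the brightest of them, read 6.16 and 3.74 against 6.04 and 5.14, and its groups overlapped. The part of fibroblasts and of these macrophages in the Vcam1 difference was not tested. Pecam1, which mediates passage between vessel lining cells, read -3.44 and -3.50 against -3.80 and -4.01, a log2 fold change of -0.44 (-0.75 to -0.14) with an unadjusted p of 0.018 and an adjusted p of 0.509. It was 0.25 with normexp fitted on all spots.

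Cd47, the ligand of SIRP alpha that restrains phagocytosis, Alcam, the ligand of CD6, and F11r, a junctional adhesion molecule that binds LFA-1, had log2 fold changes of 0.05, 0.11 and 0.11 with overlapping groups. Jam2, another junctional adhesion molecule, read -3.74 and -6.29 on wild-type arrays and -6.51 and -6.08 on those labelled S1pr2-/-. The log2 fold change of -1.28 (95% interval -4.35 to 1.79) rested on the first wild-type array, without which it was -0.0017. A second Jam2 probe had a log2 fold change of 0.10.

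Selp, the selectin of platelets and vessel lining cells, was dim on all arrays and its groups overlapped, with a log2 fold change of -0.08 (95% interval -0.66 to 0.49). Selplg, its ligand on leukocytes, had 0.12 (-0.12 to 0.36) and 0.19 by its second probe. Of the 3 cytoplasmic proteins, Tln1, or talin, had -0.12 (-0.37 to 0.13) and -0.29 by its dimmer probe (unadjusted p of 0.02 and adjusted p of 0.509 in limma, lower without overlap), Fermt3, the kindlin of blood cells, had 0.25 (-0.29 to 0.79), and Vcl, or vinculin, which joins talin to actin, had -0.35 (-1.11 to 0.41). Vcl lay at -0.04 without the second wild-type array and at -0.66 without the first, and Fermt3 at 0.03 without the second array labelled S1pr2-/-. Tln1 lay at -0.04 without the first array labelled S1pr2-/-. The groups did not overlap for any of the 3, and each gap was smaller than the wider of the spreads within a pair. Over all probes, 21.8% lay lower and 20.0% higher without overlap.

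For 15 of 33 members a further probe was measured, 16 in all, of which 12 were tested for 11 genes. Their log2 fold changes lay between -0.49 and 0.45. The further probe had the opposite sign for 4 of the 11 genes, Itga4 (0.08), Itgb1 (-0.23), Cd47 (-0.04) and Jam2 (0.10).

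Other genes of the adhesion pathway were read from a list of 71 genes, of which 69 had a probe and 64 were tested. Of these, 2 were lower at 1.5-fold with an unadjusted p under 0.05, against 1.62% of all probes, and 0 were higher, against 0.486%. Cd6, the ALCAM receptor of T cells, was one of them and read 0.80 and 1.07 on wild-type arrays and 0.47 and 0.08 on those labelled S1pr2-/-, giving a log2 fold change of -0.66 with an unadjusted p of 0.035 and an adjusted p of 0.518 in limma. The median log2 fold change of the 64 genes was -0.03, 16 lay lower without overlap (25% of the 64, against 21.8% of all probes) and 9 higher (14.1% against 20.0%). Neutrophil markers were lower at 1.5-fold with an unadjusted p under 0.05 in limma for 2 of 8 tested (Cxcr2 and Retnlg). S100a9 was also lower without overlap, by a log2 fold change of -1.46 with an unadjusted p of 0.152 in limma. In all, 5 of the 8 were lower without overlap and 0 higher, against 21.8% and 20.0% of all probes. The groups overlapped for S100a8 (log2 fold change 0.25), Ltf (0.36) and Camp (-0.11). The summed signal of this list was 85.9 and 96.4 on wild-type arrays and 69.5 and 63.2 on those labelled S1pr2-/-. This sum weighs most the brightest probe, that of Csf3r, which had a log2 fold change of -0.28.

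**Figure D4:**
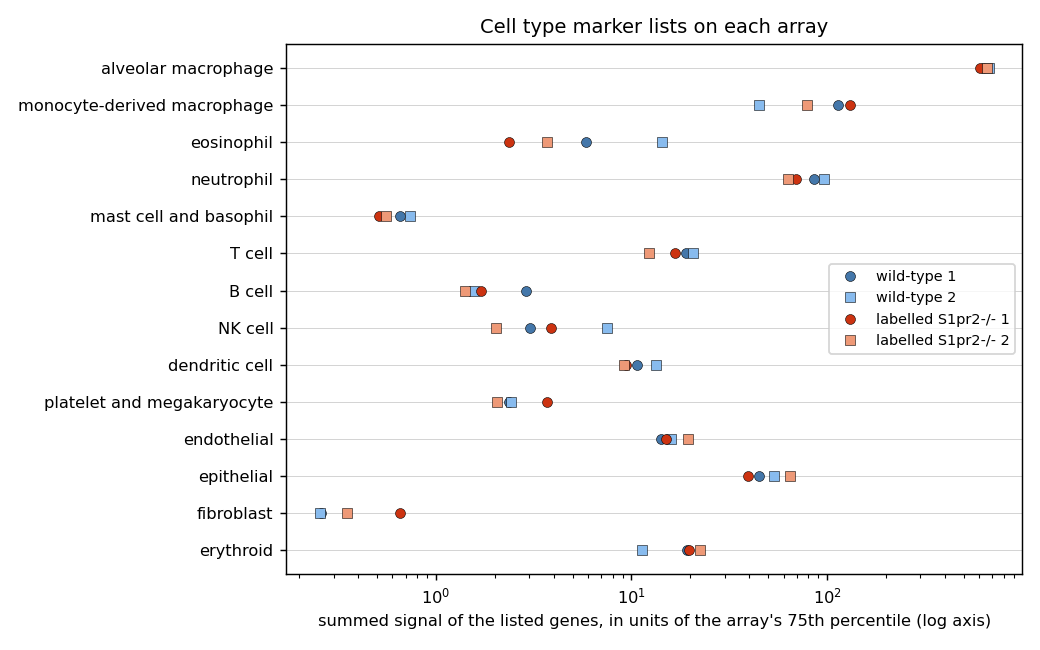
Summed signal of the listed genes of 14 cell type lists on each array, in units of the array's 75th percentile (log axis), with 1 point per array. The eosinophil list read 5.88 and 14.4 on the wild-type arrays against 2.36 and 3.70, while the alveolar macrophage list lay between 603.2 and 671.9 on all 4. Each sum weighs most the brightest probes of its list, for eosinophils that of Ear6.

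Promoter sequence, taken as the 250 bases before each start site from a RefSeq table of the build GRCm38.p6, was found for 23 of 33 members as 26 promoters. Itgb3 and Icam2 are not among them. Sequences are shown for Cd34 and Itgb7, which lay lower by 1.5-fold without overlap, and for Itgam, chosen because it holds motif matches. Matches to any of 5 motifs, searched on both strands, are in capitals, and the rest is in lower case. The windows are chr1:194938571-194938820 on the plus strand for Cd34, chr15:102231936-102232185 on the minus strand for Itgb7 and chr7:128062390-128062639 on the plus strand for Itgam.
Cd34: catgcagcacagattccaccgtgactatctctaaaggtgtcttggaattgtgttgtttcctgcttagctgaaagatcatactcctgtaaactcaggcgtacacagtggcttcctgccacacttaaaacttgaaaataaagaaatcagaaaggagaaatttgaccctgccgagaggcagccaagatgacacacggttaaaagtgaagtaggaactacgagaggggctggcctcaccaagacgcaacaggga
Itgb7: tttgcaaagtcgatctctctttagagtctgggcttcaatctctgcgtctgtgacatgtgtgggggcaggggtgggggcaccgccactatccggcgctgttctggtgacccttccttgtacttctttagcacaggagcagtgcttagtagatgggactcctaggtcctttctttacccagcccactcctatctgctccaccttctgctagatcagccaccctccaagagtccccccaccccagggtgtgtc
Itgam: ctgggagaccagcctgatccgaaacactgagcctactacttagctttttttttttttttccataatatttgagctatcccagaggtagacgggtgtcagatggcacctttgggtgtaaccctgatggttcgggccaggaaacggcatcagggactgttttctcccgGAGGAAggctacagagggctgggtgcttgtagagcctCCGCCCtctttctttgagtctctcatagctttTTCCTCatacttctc
The motif of GATA factors was spelled AGATAA or alternatively TGATAA. That of RUNX factors was spelled TGTGGT, that of PU.1 was spelled GAGGAA, that of SP1 was spelled GGGCGG, and the TATA box was spelled TATAAA. Each was searched with its reverse complement, and overlapping matches were counted. The capitals in Itgam are PU.1 matches 84 and 15 bases before the start and an SP1 match 47 bases before it. Cd34 and Itgb7 hold none of the 5 in this window, as do 8 of the 26 member promoters in all, among them those of Itga1, Itga9 and Selp, whose groups overlapped. GATA was matched in 0 of 26 member promoters and in 16.6% of all 32851 promoters, RUNX in 3 and in 14.0%, PU.1 in 10 and in 23.3%, SP1 in 13 and in 32.7%, and TATA in 0 and in 12.4%. A match describes the letters in this window and not a site that is bound.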

How the data were processed

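Cy3-labeled cRNA from BALF cells was hybridized to 4 one-color whole mouse genome arrays. The authors deposited the scanner output, with the intensity of each spot corrected for background by Feature Extraction. The file header names version 11.0.1.1 and the submitters' processing notes 10.7.3.1. The authors also deposited a table of log2 values, whose column medians were 0.02, -0.02, -0.06 and -0.03. Against the scanner output it held log2 of the processed intensity over the 75th percentile minus the wild-type mean, with no floor, within 0.01 on all 4 arrays for 100% of 39359 measured probes after the column medians of the differences were removed. It was an alternative only. The methods also list Lowess normalization, which was not applied here.

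Each processed intensity was scaled to the 75th percentile of its array's non-control spots, floored at 0.01, and turned into log2. Outlier-flagged spots (115 to 273 per array) were left out and spots of a probe averaged. Of 39429 probes, 69.6% got a gene name by matching accessions to a RefSeq table (GRCm38.p6). A probe was tested if all 4 arrays measured it and both arrays of a genotype had it well above background, which left 27161, and they were compared with limma 3.58.1 in R 4.3.3 (lmFit, eBayes, Benjamini-Hochberg over all of them), S1pr2-/- minus wild-type. The code was tested on simulated data. All arrays lay on 1 slide with 1 scan, so no batch could be tested, and precision is limited by how few arrays there are.

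1 gene of the wider adhesion list is not reported here. The members, lists and tests were chosen with earlier results of these data known. Array values are given for members past a 1.5-fold threshold, for non-overlapping members of at least 1.5-fold and for their integrin partners. Values of Itgb6, Itga3, Itgb2, Itgb5, Pecam1, Vcam1, Jam2, of further probes and of marker genes were added after they were seen. Alternatives were other scalings, normexp, the deposited log2 table, no floor, other filters, a replicate block, a trended variance, the mean of a gene's probes, the methods' t-test and fits without each array in turn. Normexp used the median signal of each spot, since the columns used here held no mean signal. Fitted on all spots as planned, it gave a background mean of -418.2 intensity units on the first array labelled S1pr2-/- (between 4.72 and 8.15 on the others). A fit without control spots was therefore added after the results of the planned fit were seen, and both are reported.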

Additional observations from a re-analysis of the deposited data

How the results depend on the processing

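No member passed an adjusted p of 0.05 under any of 16 alternatives (0 of 30), and 16 of 30 tested members kept their sign under all of them; 25 of 480 values changed sign. The count of members lower by 1.5-fold with an unadjusted p under 0.05, 1 in the reported analysis, was 2 with normexp fitted on all spots, with the authors' log2 table, without a floor, with probes detected on all arrays and with the replicate block (Cd34 and Icam2 each time), 0 by the methods' t-test and between 1 and 3 with an array left out. Without the first wild-type array these were Cd34 and Vcl, without the second Cd34, Jam2 and Itgb6, without the first array labelled S1pr2-/- Icam2, and without the second Itgb6. The higher count, 0, lay between 0 and 1 with an array left out (Vcam1, without the first wild-type array or the first labelled S1pr2-/-). Members higher without overlap, 7, were between 10 and 12 with an array left out, where a lone array makes this easier to meet, and the share over all probes rose from 20.0% to between 30.8% and 37.5%. Members lower without overlap, 12, were 7 with normexp fitted on all spots, where the share over all probes was 13.0% against 21.8%, and between 12 and 15 with an array left out, where it was between 33.1% and 39.2%. At an unadjusted p under 0.05, whose alternatives were added after the data were seen, the 4 lower members were 2 with normexp fitted on all spots and by the methods' t-test. The 1 higher member was 0 in both, 2 with normexp without control spots and with a trended variance, and between 0 and 3 with an array left out. Under the replicate block 6 were lower (Cd34, Icam2, Itgb6, Pecam1, Itga7 and Itga3) and 2 higher (Itga6 and Itgb5), with Vcam1 at an unadjusted p of 0.053. The block leaves the probe count at 0 and does not enter the overlap counts. Deviations of same-numbered arrays had a correlation of 0.19 over probes, but the labels give them only a shared number, so they were not taken as paired.

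The planned normexp fit on all spots put the background mean of the first array labelled S1pr2-/- at -418.2, where the lowest spot signal minus background was -9354. It moved the median log2 fold change of all probes to 0.19. Under it these log2 fold changes changed sign: Cd47 -0.0548, Icam1 0.0144, Itga3 0.779, Itga7 0.302, Itgb1 -0.0918, Itgb6 0.738, Jam2 0.362, Pecam1 0.247 and Selp 0.944. The fit without control spots was chosen after these values were seen. It put the median at -0.02 and gave 4 members lower by 1.5-fold with an unadjusted p under 0.05 (Cd34, Itgb3, Icam2 and Itgb7). Jam2 was at -0.719 under it but did not meet that p. The same fit gave 2 probes at an adjusted p under 0.05, neither a member, and changed the sign of Itga9 to -0.0342 and of Itgb1 to -0.0295. Quantile normalization turned Selp to 0.00489, and the mean of a gene's probes turned Itga4 to 0.00651 and Itgb1 to -0.114. With an array left out, log2 fold changes that changed sign ran from -0.0347 to 0.131 for Cd47, -0.0213 to 0.243 for F11r, -0.185 to 0.0096 for Icam1, -0.00891 to 0.333 for Itga1, -0.123 to 0.239 for Itga9, -0.185 to 0.351 for Itgal, -0.0705 to 0.0831 for Itgb1 and -0.303 to 0.139 for Selp. Among members that kept their sign in these fits, Alcam ran from 0.0257 to 0.195, Selplg from 0.0446 to 0.197 and Tln1 from -0.199 to -0.0367. Itgam ran from -0.249 to -0.0882, Itgav from 0.0936 to 0.202 and Itgb2 from 0.116 to 0.281. With an array left out, the lone array was assumed to vary like the others. The cause of these changes beyond the normexp fit was not tested. Signals near the floor limit Itga3, Itga9 (0.929 with normexp fitted on all spots and 0 on detected-probe scaling), Itgb6, Jam2 and Selp.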
